A study of Mus musculus with 12 samples.

Results

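The nuclear genes of oxidative phosphorylation were described in spleen cells of lupus-prone SLE.yaa mice and of WT mice. All genes of the expression table whose symbol begins with Nduf, Uqcr, Cox4, Cox5, Cox6, Cox7, Cox8 or Atp5 were taken, which gave 88 of 16094 genes, among them 1 pseudogene, Cox5b.ps. Their measured values played no part in the choice. The spleens came from 4 male mice and were sorted with magnetic beads for CD45, a marker of leukocytes, before capture in 10x Genomics droplets. WT stands for strain C57BL/6 (2 mice). SLE.yaa stands for strain B6.Sle1yaa (2 mice), in which the Sle1 interval of chromosome 1, a source of lupus susceptibility, is combined with Yaa, where X chromosome sequence with Tlr7 has moved to the Y chromosome. The groups stand under a label that mentions chimeras, and no label says how any chimera was made. The deposited age was 14.43 in both WT mice and 14.86 in both SLE.yaa mice, with no unit, so age and group cannot be told apart.

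Oxidative phosphorylation is the last stage of respiration in mitochondria. Complexes I, III and IV pass electrons from nutrients to oxygen and pump protons across the inner membrane, and ATP synthase lets the protons flow back to make ATP. Most subunits are nuclear genes, while a small core set is encoded by mitochondrial DNA, so that each complex is assembled from both genomes. Resting lymphocytes rely on this pathway, activated lymphocytes and plasma cells are known to enlarge their mitochondria, and neutrophils are known for few mitochondria and for living on glycolysis.

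The table held 22285 cells, between 4961 and 6130 per mouse, and median UMI counts (unique RNA molecules read) per cell were 3467 and 3670 in the WT mice and 4695 and 4050 in the SLE.yaa mice. A total of 254 barcodes occurred in more than 1 mouse. No doublet caller was run here, and no source used here says how doublets were treated. Levels are means over the cells of 1 mouse and 1 annotated type, scaled to a sum of 1000000 over all genes and then between mice with TMM factors, and are written vpm (values per 1000000). The members held 1.78% of all depth-adjusted values. The mouse was the replicate, so every SD is over n = 2 mice. Nothing in the labels says more of how the mice were housed or handled together. Types carry the authors' names. Mac carried monocyte markers (summed 11821 to 20069 vpm over the 4 mice) rather than macrophage markers (114 to 179 vpm). DC held 2 kinds of cells. In DC, all 10 macrophage markers on the list were higher in SLE.yaa, and their sum was 859 and 1983 vpm in the WT mice and 16670 and 12719 vpm in the SLE.yaa mice. Dendritic cell markers in DC summed to 5441 and 5311 vpm in the WT mice, against 1827 and 3028 vpm. PMN carried the neutrophil markers, with sums of 127630 to 303180 vpm, and PC the plasma cell markers, with sums of 60628 to 119490 vpm.

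Across annotated types, the members stood lowest in PMN. Types are clusters of these same cells, so levels between types are a description with no test. Of 81 members with a mean over 10 types of at least 10 vpm, 58 were lowest in PMN, 19 highest in NK, 18 highest in Mac and 18 highest in PC. In PMN, 66 of the 81 stood below their level in B and 15 above. Atp5g1, 1 of the 3 genes that encode the same proton-carrying subunit c of ATP synthase, had 217, 178, 206 and 234 vpm in B and 51.0, 32.6, 46.3 and 32.3 vpm in PMN, in the order WT 1, WT 2, SLE.yaa 1 and SLE.yaa 2. The complex I assembly factor Ndufaf4 stood in PMN at 0.121 times its mean level in B. Some members kept to another order. Atp5l, a membrane subunit of ATP synthase, stood in PMN at 1.70 times its level in B, and Ndufb9 of complex I at 1.82 times. PMN cells were the shallowest, with median UMI counts of 1640 and 1547 in the WT mice and 2368 and 2712 in the SLE.yaa mice, against 3218 to 4778 in B. The part of depth in these levels was not tested.

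**Figure D1:**
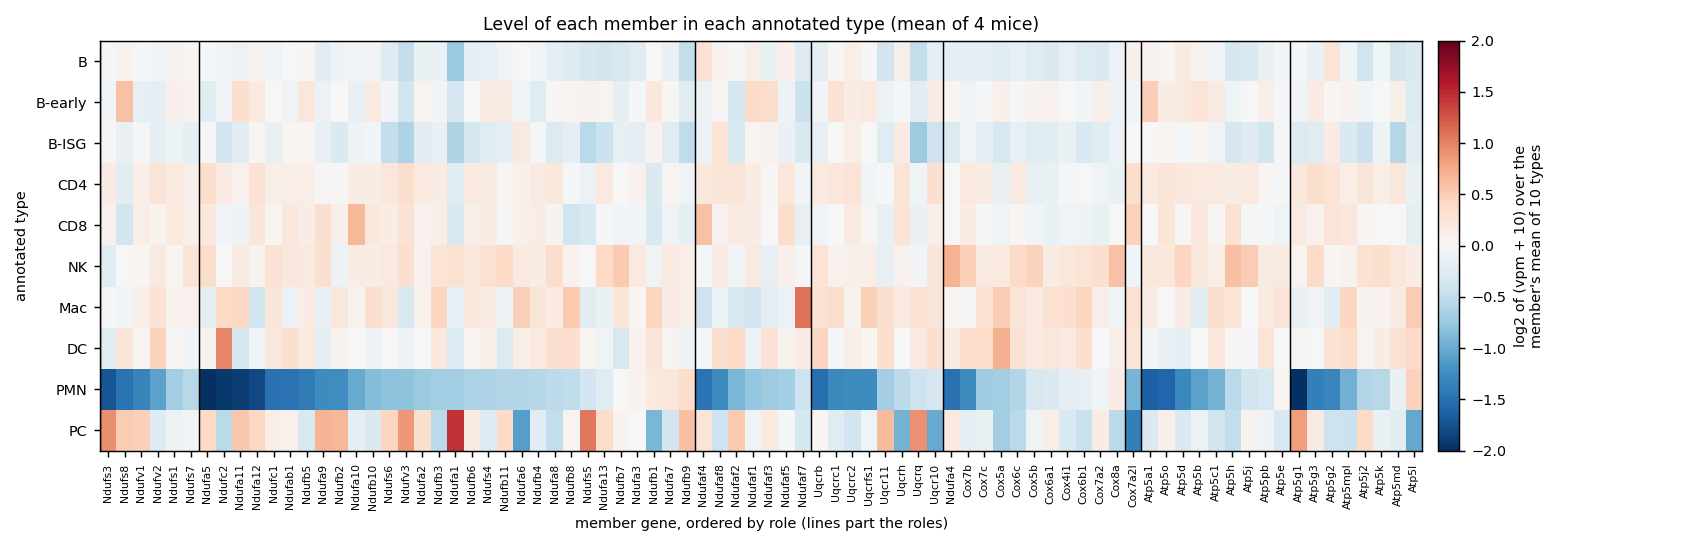
Level of each of 80 members (columns, ordered by role) in each annotated type (rows), as log2 of vpm plus 10 over the mean of 10 types, with each value the mean of 4 mice. The PMN row is blue for most members, and single cells such as Ndufa1 in PC, Ndufaf7 in Mac and Ndufc2 in DC stand out in red.

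Single members marked single types. Ndufa1, a small X-linked accessory subunit of complex I, had 315 and 494 vpm in PC of the WT mice and 855 and 937 vpm in PC of the SLE.yaa mice, where its level in B was 138, 124, 133 and 149 vpm. PC stood above every other type for it in each mouse. Ndufaf7, a methyltransferase that helps complex I assembly, was highest in Mac, with 41.8, 60.1, 76.7 and 70.4 vpm against means of 15.2 to 27.6 vpm elsewhere. Ndufc2 of complex I was highest in DC, with 244, 164, 284 and 310 vpm, and lowest in PMN, with 26.2, 22.4, 23.1 and 27.4 vpm. Cox7a2l went the opposite way to Ndufa1, with its lowest mean in PC and its highest in CD8 (100 and 380 vpm). Of the isoforms known from other tissues, 4 stayed low. The highest mean over the 4 mice in any of the 10 types was 5.0 vpm for Cox4i2, the lung form of subunit 4, 1.75 vpm for Cox7a1, a muscle form, 8.54 vpm for Cox6b2, a testis form, and 2.17 vpm for Ndufa4l2. Cox6a2, the heart and muscle form of subunit 6a, reached a mean of 24.8 vpm in PC. The means of their general counterparts Cox4i1, Cox7a2, Cox6b1 and Ndufa4 lay between 122 and 957 vpm in every type.

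The summed level of the 88 members was higher in SLE.yaa than in WT in CD4, CD8, B-early, B-ISG, Mac, DC and PC, without overlap between the groups. It overlapped in B, NK and PMN. The separation depended on the scaling and the cells used: CD8 and DC overlapped with values scaled to the sum alone, CD4, CD8 and DC on a scale that leaves out ribosomal and immunoglobulin genes, and CD8, B-early and B-ISG in cells scored as not cycling. It was also gained: B did not overlap in cells with 2500 to 5000 UMIs (17.1% higher). With no scaling between mice, B, NK and PMN were higher in SLE.yaa without overlap. No p-value is given for a sum over chosen members. In CD4 the sums were 18984 and 17305 vpm in the WT mice and 19819 and 22542 vpm in the SLE.yaa mice, 16.7% higher on average. In CD8 they were 18182 and 16340 against 18266 and 22614 vpm, so that SLE.yaa 1 stood just above WT 1. In Mac they were 19852 and 18068 against 21562 and 23749 vpm (19.5% higher). In Mac cells with Ly6c2, a mark of classical monocytes, the sum was 11.5% higher with overlapping groups, and in those without it 18.8% higher without overlap. In DC the sums were 18862 and 17930 against 21095 and 23337 vpm (20.8% higher). With TMM factors the widest gap was in PC, with 14364 and 15178 against 19497 and 21359 vpm (38.3% higher), where the WT mice had only 12 and 11 cells and the SLE.yaa mice 340 and 287. The median log2 change of all genes in PC was 0.44, beside 0.47 for the sum. Scaled to the sum alone, PC was 15.6% higher and CD4 20.2%, and without ribosomal and immunoglobulin genes PC was 6.89% and B-early 17.0% higher. In PMN the sums were 12623 and 12168 against 11973 and 12901 vpm, but on those other scales PMN was 14.6% and 19.1% lower in SLE.yaa, without overlap.

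**Figure D2:**
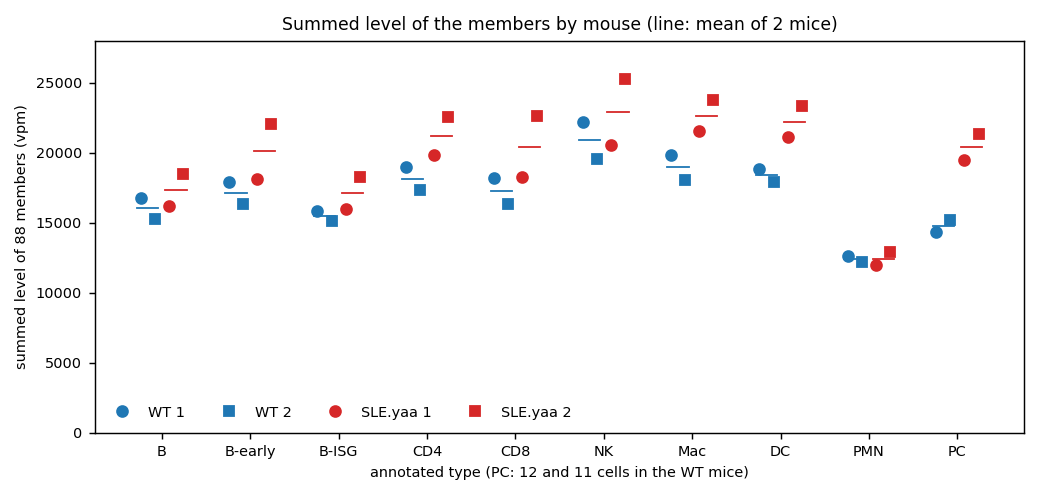
Summed level of the 88 members in vpm (vertical axis, from 0) for each mouse and annotated type, with circles for replicate 1, squares for replicate 2, blue for WT, red for SLE.yaa and lines for the mean of 2 mice. WT 2 is the lowest and SLE.yaa 2 the highest mouse in 8 of the 9 types other than PC.

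The same 2 mice stood lowest and highest in most types. Of the 9 types other than PC, WT 2 was the lowest mouse and SLE.yaa 2 the highest in 8, all but PMN. This also held for 8 of 9 when values were scaled to their sum alone, and for 6 of 9 with no scaling between mice. With TMM factors, WT 1 stood 1.04 to 1.14 times above WT 2 within the 8 types other than PMN and PC. The gap between SLE.yaa 1 and WT 1 was therefore smaller than the difference of the group means in each of them, and in B and NK SLE.yaa 1 stood below WT 1. The sums also moved with the scaling. The difference in Mac was 19.5% with TMM factors and 4.77% with values scaled to the sum alone, under which the median log2 change of all genes in Mac was -0.12 instead of 0.03. In DC it was 20.8% and 7.43%, and in CD4, on a scale that leaves out ribosomal and immunoglobulin genes, 5.90% with overlapping groups.

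In CD4, 18 of 81 tested members rose in SLE.yaa and 3 fell (limma on log2 of vpm plus 10, Benjamini-Hochberg adjusted p under 0.05 over 8415 genes). That is 25.9% of the members, where 28.2% of all genes tested passed in either direction, 15.9% higher and 12.3% lower. The members' higher calls made up 22.2% and their lower calls 3.70%. The groups did not overlap for 45 members that were higher and 6 that were lower in SLE.yaa, where 32.1% and 31.7% of all genes were so. The median log2 change was 0.19 over the members and -0.01 over all genes, and 82.7% of members against 48.5% of all genes had a positive change. The 7 members left out by the filter of 10 vpm in 2 mice were Ndufaf6, Cox4i2, Cox6a2, Cox6b2, Cox7a1, Ndufa4l2 and Cox5b.ps.

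By role, complex IV, which passes electrons to oxygen, had 5 of 11 tested subunits higher and a median of 0.31. Cox6c rose most among them, from 433 and 376 vpm in the WT mice to 540 and 664 vpm in the SLE.yaa mice, a log2 change of 0.56 ± 0.13 (SE, adjusted p = 0.00468). Cox8a, its smallest nuclear subunit, had 581 and 501 against 690 and 896 vpm, and Cox5b had 325 and 261 against 372 and 441 vpm. Cox6b1 rose by 0.49 and Cox7b by 0.36. In all of these both SLE.yaa mice stood above both WT mice, which adds nothing to the test that picked them. In complex III, 3 of 8 subunits rose, namely the small subunits Uqcrb, Uqcr11 and Uqcr10, with changes of 0.44, 0.43 and 0.42. Uqcrfs1, the Rieske iron-sulfur protein at the catalytic centre of complex III, went the opposite way without passing the threshold, with 154 and 164 against 115 and 135 vpm (-0.32, adjusted p = 0.0749). ATP synthase had 1 of 9 subunits of the F1 head and stalks higher (Atp5j) and 2 of 8 of the membrane part (Atp5g3 and Atp5j2). Atp5j had 331 and 285 against 418 and 457 vpm, a change of 0.50 ± 0.12 (adjusted p = 0.00656). The 3 subunit c genes did not give the same result, with changes of 0.50 for Atp5g3, which rose (adjusted p = 0.0113), 0.24 for Atp5g1 (0.180) and 0.18 for Atp5g2 (0.293).

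In complex I, where electrons of NADH enter the chain, 7 of 37 tested subunits rose and 1 fell. Ndufb8, an accessory subunit of the membrane arm, had 122 and 108 vpm in the WT mice and 169 and 187 vpm in the SLE.yaa mice, the largest rise of any member (0.59 ± 0.13, adjusted p = 0.00228). Ndufa13, also known as a cell death factor, had 353 and 289 against 454 and 492 vpm (0.55). Ndufa1, Ndufs6 and Ndufb9 rose by 0.45, 0.38 and 0.37. Of the 7 core subunits, which carry the electron path, Ndufs8 and Ndufv2 rose by 0.40 and 0.38. The other core subunits lay between -0.04 (Ndufv1) and 0.21 (Ndufs3). Of the members named for their level within their role, Ndufs7, Ndufa6, Ndufaf8, Ndufaf3, Uqcrh, Uqcrq, Cox4i1, Atp5e, Atp5h, Atp5g2 and Atp5l passed in none of the 9 types tested.

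**Figure D3:**
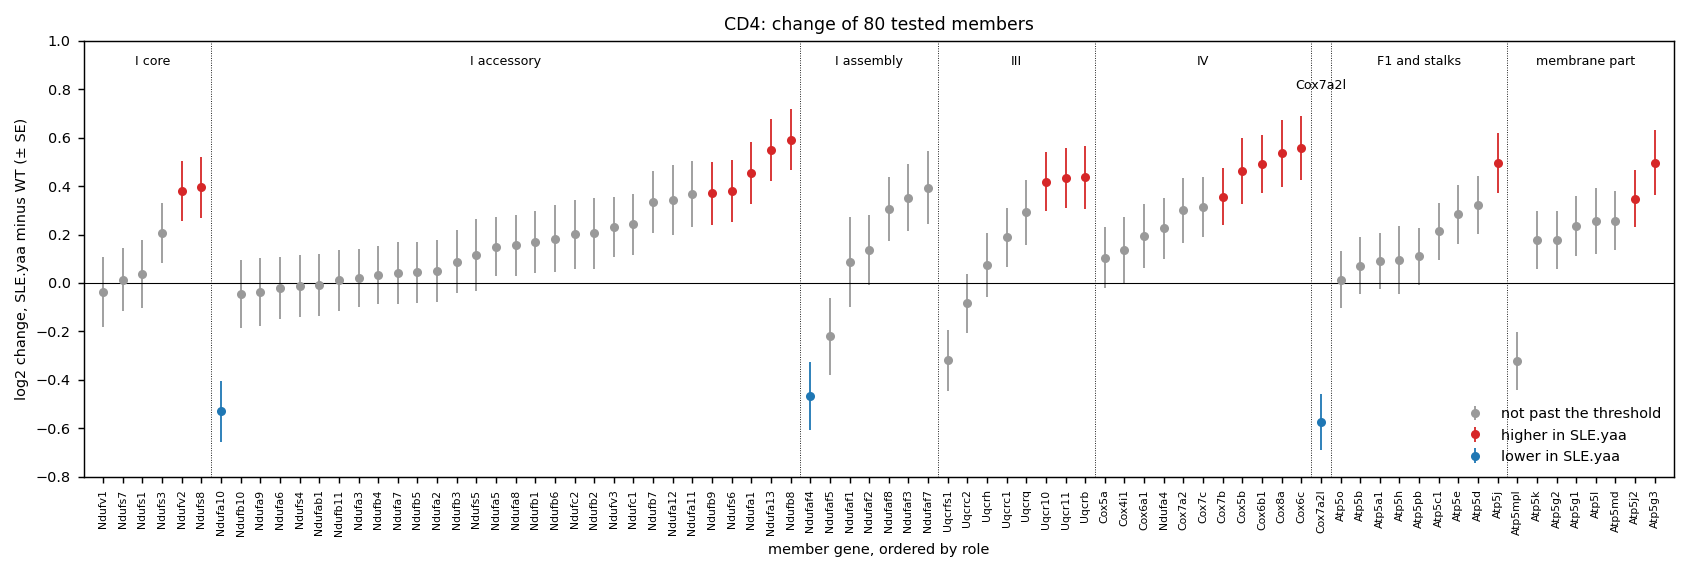
Log2 change between SLE.yaa and WT in CD4 (vertical axis) for 80 tested members ordered by role, with points for the estimate from 2 against 2 mice and bars for 1 SE. Red points (18) rose, blue points (3) fell, and grey points did not pass the threshold.

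The 3 members that fell in CD4 were Cox7a2l, Ndufa10 and Ndufaf4. Cox7a2l (also called SCAF1) joins complexes III and IV into supercomplexes, and C57BL/6 mice are known to carry a shortened form of it. It had 440 and 411 vpm in the WT mice and 280 and 285 vpm in the SLE.yaa mice, a log2 change of -0.57 ± 0.12 (adjusted p = 0.00154), the smallest adjusted p of any member in any type. The groups did not overlap and the 2 SLE.yaa mice lay within 5 vpm of each other. Ndufa10, an accessory subunit of complex I, fell from 99.2 and 92.4 to 64.0 and 62.5 vpm (-0.53 ± 0.13, adjusted p = 0.00532). Ndufaf4 fell from 43.3 and 48.2 to 29.9 and 30.8 vpm (-0.47 ± 0.14, adjusted p = 0.0207). In the other types tested Cox7a2l did not pass. Its changes in B, B-early, B-ISG, CD8, NK, Mac, DC and PMN lay between -0.06 and 0.13, with adjusted p from 0.716 to 0.987. In CD8 it had 383 and 394 against 389 and 354 vpm, and the difference between CD4 and CD8 did not pass (-0.51 ± 0.16, adjusted p = 0.0916). In PC its values were 157 and 138 against 63.2 and 41.2 vpm, a change of -1.37 that did not pass (adjusted p = 0.0864).

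**Figure D4:**
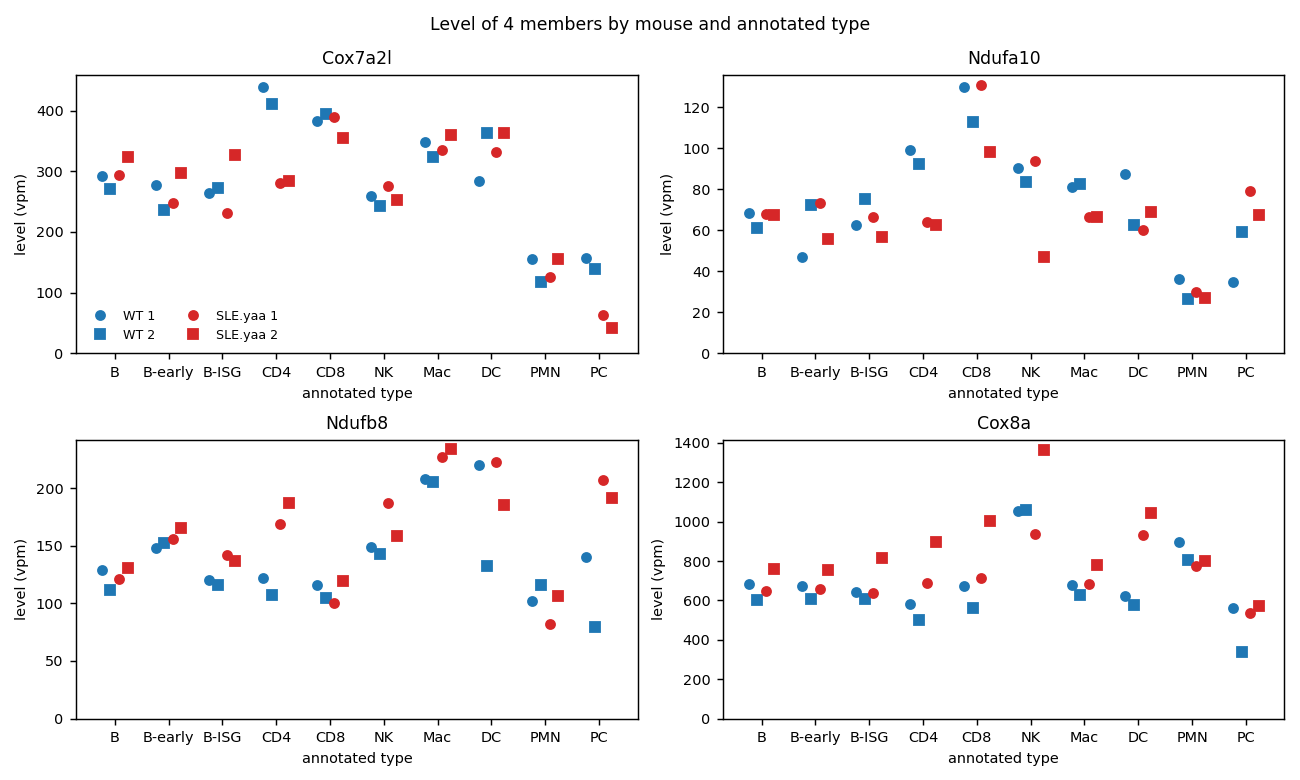
Level in vpm (vertical axes, from 0) of Cox7a2l, Ndufa10, Ndufb8 and Cox8a in each mouse and annotated type, with symbols as for the summed levels. In CD4, both SLE.yaa mice lie below both WT mice for Cox7a2l and Ndufa10 and above them for Ndufb8 and Cox8a, while for Cox7a2l the groups overlap in CD8, Mac and DC.

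Other measures changed with these genes in CD4. Ribosomal transcripts made up 35.3% and 35.6% of UMIs in CD4 of the WT mice and 23.7% and 23.4% in the SLE.yaa mice, and 64 of 82 tested ribosomal protein genes fell. On the scale without ribosomal and immunoglobulin genes, 7 members rose and 5 fell, where 12.5% of all genes rose and 18.0% fell, and the median of all genes moved from -0.01 to -0.13. Under all 4 scalings, Atp5g3, Atp5j, Cox6b1, Cox6c, Cox8a, Ndufa13 and Ndufb8 stayed higher and Cox7a2l lower. Of the 18 members that rose with all mice, 0 passed without WT 2 (limma), 3 without SLE.yaa 2, 9 without WT 1 and 18 without SLE.yaa 1. The members called higher in these fits numbered 0, 3, 10 and 28, where 11.4%, 9.58%, 12.6% and 12.8% of all genes were called higher. Cox7a2l passed with each of the 4 mice left out. B cell markers were lower in CD4 of SLE.yaa, with 8 of 9 called and sums of 495 and 493 against 230 and 292 vpm, and 4 of 5 tested T cell markers rose. Plasma cell markers had 4 of 6 called higher, with sums of 118 and 107 against 378 and 295 vpm, and 2 of 4 tested monocyte markers rose (sums of 91.2 and 96.2 against 215 and 191 vpm). Macrophage markers summed to 10.1 and 3.78 against 68.1 and 78.7 vpm, with 1 tested and higher, and of 4 tested proliferation markers 2 rose and 1 fell. The part of these shifts in the members' changes was not tested.

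The 250 bases before the start of transcription are shown for members of the CD4 result, to let the sequences of genes that fell (Cox7a2l, Ndufaf4) be read beside those of genes that rose (Ndufb8, Cox8a, Uqcr11). They are RefSeq sequences of the build GRCm38.p6, written 5′ to 3′ on the gene's strand, and capitals mark a motif where one was found.
Cox7a2l: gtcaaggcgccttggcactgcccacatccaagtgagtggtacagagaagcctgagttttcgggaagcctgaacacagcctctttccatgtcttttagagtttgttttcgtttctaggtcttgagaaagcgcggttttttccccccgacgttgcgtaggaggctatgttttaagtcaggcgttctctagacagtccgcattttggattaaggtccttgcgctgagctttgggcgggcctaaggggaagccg
Ndufaf4: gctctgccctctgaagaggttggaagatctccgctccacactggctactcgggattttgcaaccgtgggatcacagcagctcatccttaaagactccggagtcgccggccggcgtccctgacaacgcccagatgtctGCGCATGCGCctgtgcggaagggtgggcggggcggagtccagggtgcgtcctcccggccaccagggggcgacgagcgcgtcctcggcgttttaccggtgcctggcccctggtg
Ndufb8: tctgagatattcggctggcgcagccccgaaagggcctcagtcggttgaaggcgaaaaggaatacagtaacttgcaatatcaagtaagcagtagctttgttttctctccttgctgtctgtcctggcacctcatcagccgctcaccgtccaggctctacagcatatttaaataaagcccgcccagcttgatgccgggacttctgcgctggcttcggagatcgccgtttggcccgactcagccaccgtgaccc
Cox8a: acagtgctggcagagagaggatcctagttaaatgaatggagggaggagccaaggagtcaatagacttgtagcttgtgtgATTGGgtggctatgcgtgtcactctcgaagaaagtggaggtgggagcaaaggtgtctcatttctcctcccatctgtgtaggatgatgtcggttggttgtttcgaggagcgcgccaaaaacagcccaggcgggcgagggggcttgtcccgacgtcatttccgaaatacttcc
Uqcr11: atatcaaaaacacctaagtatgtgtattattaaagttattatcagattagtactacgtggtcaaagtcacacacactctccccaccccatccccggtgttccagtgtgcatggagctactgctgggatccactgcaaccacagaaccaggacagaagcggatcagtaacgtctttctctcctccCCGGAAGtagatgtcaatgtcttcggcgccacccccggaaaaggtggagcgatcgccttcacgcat
They lie on the minus strand at chr17:83514334-83514583 (Cox7a2l), chr19:44555443-44555692 (Ndufb8), chr19:7217617-7217866 (Cox8a) and chr10:80406822-80407071 (Uqcr11), and on the plus strand at chr4:24897833-24898082 (Ndufaf4). In Ndufaf4 the capitals mark the palindrome bound by NRF1, a known regulator of respiratory genes, which is the letters GCGCA followed by their reverse complement. In Cox8a they mark a CCAAT box read on the opposite strand, and in Uqcr11 the ETS motif CCGGAAG. Both strands were searched in the 72 members with such a sequence and in 17492 protein-coding genes. The NRF1 motif was in 5 members (6.94%) against 1.21% of protein-coding genes, and the ETS motif in 13 (18.1%) against 10.2%. CCAAT was in 31 (43.1%) against 39.5%, TATAAA in 6 (8.33%) against 13.7%, and AAGATGGCG, the YY1 motif, in 1 (1.39%) against 0.84%. Of the members that rose in CD4, 15 had a sequence, and 9 of these held CCAAT, 3 the ETS motif and 0 the NRF1 motif. Neither Cox7a2l nor Ndufb8 held any of the 5 letter strings in this window.

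Whether the members changed differently in CD4 and in B was tested on the difference within each mouse. In B, 0 of 81 members passed (limma, 1 at an unadjusted p under 0.05, Ndufv3), where 4.1% and 13.5% of all genes did. The change in B differed from that in CD4 for 18 of 81 members, or 22.2%, where 26.6% of all genes tested differed. For 12 members the change was lower in B, where 13.4% of all genes were so. Ndufb8 changed by 0.06 in B and 0.59 in CD4 (difference -0.53 ± 0.10, SE, adjusted p = 0.00388), and Ndufa13 by 0.11 and 0.55 (difference -0.44). For 6 members it was higher in B, against 13.3% of all genes. Cox7a2l had 292 and 270 against 293 and 323 vpm in B, and its change differed from that in CD4 by 0.70 ± 0.10 (adjusted p = 0.000957). Ndufa10 changed by 0.06 in B, a difference of 0.59. On the scale without ribosomal and immunoglobulin genes, 11 of the 12 members lower in B lost the call. Ndufb8, Cox7a2l and Ndufa10 differed under both other scalings and with each mouse left out.

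**Figure D5:**
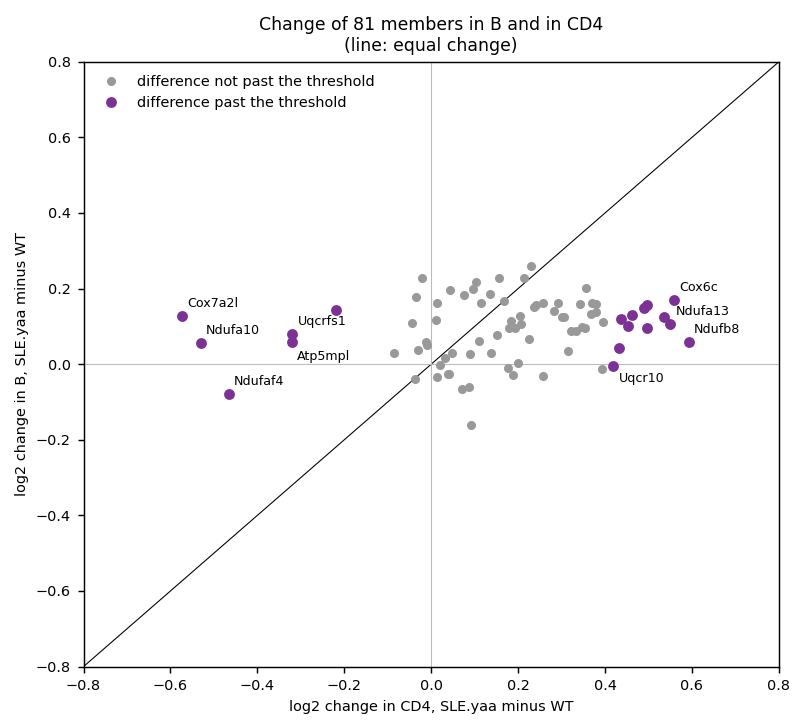
Log2 change between SLE.yaa and WT in B (vertical axis) against that in CD4 (horizontal axis) for 81 members, with a line of equal change. Purple points (18) are members whose change differed between the types, and the changes in B stay between -0.16 and 0.26 while those in CD4 run from -0.57 to 0.59.

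In CD8, 0 of 81 members passed (limma, 11 at an unadjusted p under 0.05, 10 of them higher), where 3.14% of all genes passed, 16.0% had an unadjusted p under 0.05 and 8.53% had one and were higher. All 11 tested complex IV subunits had positive changes there, with a median of 0.34. Cox8a had 672 and 564 against 715 and 1002 vpm (0.45, adjusted p = 0.218), with SLE.yaa 2 far above the other 3 mice. The difference between CD4 and CD8 passed for 1 member, Ndufb8 (0.60 ± 0.15, adjusted p = 0.0409), which had 116 and 104 against 101 and 119 vpm in CD8. For all genes tested, 6.69% differed, 3.81% with the larger change in CD4. With each mouse left out in turn, this call was kept in 1 case of 4.

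In DC, 5 of 82 tested members rose and 0 fell, which is 6.10%, where 12.1% of all genes passed, 8.38% higher and 3.77% lower. Ndufb2 of complex I had 66.3 and 73.2 vpm in the WT mice and 137 and 142 vpm in the SLE.yaa mice (0.91 ± 0.19, adjusted p = 0.0159). Cox8a had 624 and 578 against 933 and 1044 vpm (0.71), Atp5g3 320 and 342 against 555 and 504 vpm (0.66), Ndufb10 121 and 118 against 197 and 192 vpm (0.66) and Cox5a, a subunit on the matrix side of complex IV, 365 and 362 against 556 and 591 vpm (0.64). In none of the 5 did the groups overlap, which adds nothing to the test that picked them. Of all genes, 31.5% were higher in both SLE.yaa mice. Of these 5, 2 passed with values scaled to the sum alone, 1 without ribosomal and immunoglobulin genes or without SLE.yaa 1, and 0 without SLE.yaa 2 or without the filter on low values. Cells of DC with no C1q transcript numbered 73 and 65 of 77 and 74 in the WT mice and 51 and 71 of 260 and 290 in the SLE.yaa mice. Among these, 0 of 82 members passed (limma, 3 at an unadjusted p under 0.05), where 0.365% and 8.3% of all genes did. Ndufb2 there had 69.2 and 79.3 against 140 and 132 vpm (0.79, adjusted p = 0.388), and Cox5a 359 and 373 against 474 and 463 vpm (0.35).

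In Mac, 0 of 78 members passed (limma, 25 at an unadjusted p under 0.05, all 25 higher), where 5.69% of all genes passed, 21.1% had an unadjusted p under 0.05 and 13.1% had one and were higher. Of the 78, 70 had positive changes (89.7%), against 54.3% of all genes. The median log2 change in Mac was 0.21 over the members and 0.03 over all genes tested. Over all genes with a mean of at least 50 vpm it was 0.12. The part of expression level in the members' changes was not tested. Ndufa4, a subunit of complex IV once counted to complex I, came closest, with 326 and 292 against 407 and 454 vpm (0.47, adjusted p = 0.0600). Atp5e, the small epsilon subunit of ATP synthase, had 891 and 912 against 1133 and 1248 vpm (0.40, adjusted p = 0.0789). In both the SLE.yaa mice stood above the WT mice. Leaving out WT 1 gave 20 members higher, where 13.6% of all genes were. Cells with Ly6c2 made up 45.1% and 37.3% of Mac in the WT mice and 18.0% and 15.8% in the SLE.yaa mice. They were read more deeply than those without it, and the part of depth in these shares was not tested. Within Mac cells with Ly6c2, 0 of 82 members passed (limma, 2 at an unadjusted p under 0.05), where 0.386% and 8.43% of all genes did. Within those without it, 0 of 79 passed (17 unadjusted), where 1.11% and 12.5% did. The change in B and in Mac differed for 0 of 78 members (limma, 8 at an unadjusted p under 0.05), where 5.56% of all genes differed and 21.3% had an unadjusted p under 0.05.

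In the other types no member passed. In B-early 0 of 79 passed (limma, 2 at an unadjusted p under 0.05), where 0.424% and 8.64% of all genes did, and in B-ISG 0 of 81 (4 unadjusted), where 0.88% and 7.82% did. In NK 0 of 81 passed (2 unadjusted), where 0.0967% and 5.98% did, and in PMN 0 of 77 (2 unadjusted), where 1.92% and 14.9% did. The median change of the members was 0.21 in B-early, 0.12 in B-ISG, 0.10 in NK and 0.04 in PMN, where that of all genes lay between -0.05 and 0.03. In PC, tested only with the minimum lowered to 10 cells, Ndufc2 rose, from 35.0 and 39.5 to 116 and 136 vpm (1.52 ± 0.22, adjusted p = 0.0370). This was 1 of 82 members (22 higher and 1 lower at an unadjusted p under 0.05), where 8.36% of all genes passed, 8.02% higher and 0.341% lower. At an unadjusted p under 0.05, 14.8% of all genes were higher and 3.22% lower. The call was lost with either SLE.yaa mouse left out. It was also lost with values scaled to the sum alone. The WT levels of Ndufc2 came from only 12 and 11 cells. The median of all genes in PC was 0.44 and that of the members 0.50.

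Among the roles, complex IV showed the most even direction over types. All of its tested subunits had positive changes in B, B-early, CD4, CD8 and Mac (11 of 11 in each), where 45.8% (CD8) to 54.3% (Mac) of all genes had. In B-ISG and NK 10 of 11 had, in DC 11 of 12 and in PMN 6 of 11. Of all genes, 51.0% in B-ISG, 44.5% in NK, 55.5% in DC and 53.2% in PMN had. Other roles came near this. For the F1 head and stalks of ATP synthase, 9 of 9 were positive in CD4, CD8, NK and Mac and 8 of 9 in DC. In B and B-early 7 of 9 were, and in B-ISG and PMN 6 of 9. Cytosolic ribosomal protein genes were positive for 83 of 83 in Mac, 79 of 82 in NK and 75 of 82 in B. For these genes it was 23 of 82 in CD8, 21 of 82 in DC, 2 of 82 in CD4 and 1 of 83 in PMN. All genes with a mean of at least 50 vpm had a median change of 0.12 in Mac and 0.16 in DC. The median change of complex IV was 0.13 in B, 0.24 in B-early, 0.18 in B-ISG, 0.31 in CD4, 0.34 in CD8, 0.16 in NK, 0.29 in Mac, 0.37 in DC and 0.13 in PMN. These types share the same 4 mice, in which SLE.yaa 2 was high and WT 2 low in most types.

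By position, the X chromosome holds 3 members, Ndufb11 (chrX:20615326-20617619 in GRCm38), Ndufa1 (chrX:37187588-37191238) and Cox7b (chrX:106015700-106022450), where Tlr7 lies at chrX:167303380-167330574. Ndufa1 and Cox7b were among the genes that rose in CD4, and Ndufb11 had 285 and 246 against 254 and 281 vpm there (0.01). No X-linked member passed in the other 8 types.

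Of the subunits encoded by mitochondrial DNA, 0 of 13 passed in CD4 (limma, 0 at an unadjusted p under 0.05, 1 with a positive change), and their sums were 25949 and 23492 against 21835 and 25006 vpm, with overlap. In Mac, 7 of 13 rose with TMM factors, where 3.92% of all genes were called higher. No other scaling, Ly6c2 subset or left-out mouse is given for these calls. mt.Nd1, a core subunit of complex I, had 643 and 672 against 1105 and 1255 vpm (0.83 ± 0.12, adjusted p = 0.00449), and mt.Co3 of complex IV 2102 and 2142 against 2964 and 3347 vpm. The other 5 were mt.Nd2, mt.Nd3, mt.Co2, mt.Atp6 and mt.Cytb, with changes of 0.48 to 0.62. In DC 3 of 13 rose, mt.Nd1, mt.Nd2 and mt.Atp6. The percent of mitochondrial UMIs, as deposited, in Mac was 1.55, 1.64, 1.63 and 1.77 over the 4 mice, in the order used above. By this measure the groups overlapped, with WT 2 above SLE.yaa 1. Median UMI counts in Mac were 4308, 4535, 3515 and 3149. In PMN 1 of 13 passed, mt.Atp8, which fell from 208 and 126 to 65.9 and 57.7 vpm.

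Other genes of the pathway were counted from lists. For all lists in CD4, the shares over all genes were 15.9% higher and 12.3% lower. Of 23 tested assembly factors of complexes III, IV and ATP synthase, 2 rose in CD4 and 1 fell. Cox17, a copper chaperone of complex IV, had 173 and 144 against 229 and 289 vpm (0.68), Cox20 rose by 0.53, and Sco2, another copper chaperone, fell from 23.7 and 26.8 to 18.4 and 11 vpm. Cox17 and Cox20 were also the 2 that rose in Mac (0.62 and 0.61). Of 8 carriers and inhibitors, 2 rose in CD4. Atpif1, the inhibitor that stops ATP synthase from running backwards, had 87.7 and 73.5 against 170 and 237 vpm (1.22 ± 0.15, adjusted p = 1.96e-05). Ucp2, a carrier of the inner membrane, had 472 and 435 against 1198 and 964 vpm (1.23), and rose also in CD8 (0.85) and DC (1.18). In DC the ADP/ATP carrier Slc25a5 (0.88) and Sdhb of complex II (0.73) rose as well. The share of DC cells with C1q differed between the groups.

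Upstream of the chain, 10 of 15 tested glycolysis genes rose in CD4 and 0 fell. Tpi1 had 38.1 and 31.5 against 173 and 183 vpm (2.07), and Aldoa 387 and 390 against 757 and 771 vpm (0.96). The others were Gapdh, Pgam1, Pfkl, Pkm, Pgk1, Hk1, Pfkp and Ldha, with changes of 0.34 to 1.21. In the tricarboxylic acid cycle, which feeds NADH to complex I, 0 of 16 rose in CD4 and 2 fell, Suclg2 (-0.68) and Pdha1 of pyruvate dehydrogenase (-0.57). In DC, Mdh2 fell from 736 and 617 to 249 and 322 vpm (-1.22 ± 0.19, adjusted p = 0.00363). Cells without C1q made up 94.8% and 87.8% of DC in the WT mice and 19.6% and 24.5% in the SLE.yaa mice. The DC values of pathway genes cover all DC cells, and the part of this mix in them was not tested. Of 11 tested regulators of mitochondrial genes, 2 fell in CD4. Myc had 56.2 and 70.0 against 39.6 and 26.8 vpm (-0.77) and Pprc1, a coactivator of NRF1, 38.8 and 46.4 against 20.5 and 21.1 vpm (-0.77). Of 78 mitochondrial ribosomal proteins, 3 rose and 5 fell in CD4, with a median of -0.01. In Mac, Ldha, Aldoa and Pgam1 rose by 0.80, 0.69 and 0.54, and in DC Aldoa, Tpi1 and Ldha by 1.25, 1.06 and 0.73. In PC, Sdhb had 87.5 and 79.1 against 189 and 212 vpm, and the other pathway genes called there stood at 0 in both WT mice, in 12 and 11 cells.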

How the data were processed

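The deposited expression table holds natural log values. Each is the log of a whole number raised by 1 (within 1.64e-11), which the authors had adjusted for depth in a way not stated here. Deposited for each cell are its counts of UMIs and genes, its percent of mitochondrial and of ribosomal UMIs, cell cycle and heat shock scores, and the authors' cell type. Per the submitters' processing notes, Cell Ranger 5.0.0, Seurat 4.0.0 and GRCm38 (mm10) were used. Totals were 21793635 (WT 1), 23700502 (WT 2), 26273157 (SLE.yaa 1) and 28877299 UMIs (SLE.yaa 2). The 15 rows without a gene name (0.0440% of values) were left out.

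Groups came from the labels. The depth-adjusted values (the exponential minus 1) were averaged per mouse and type, scaled to 1000000 and divided by TMM factors (edgeR 4.0.16). Log2 of vpm plus 10 was tested with limma 3.58.1 (trend, two-sided) on genes with at least 10 vpm in 2 mice, 1 fit per type with at least 20 cells in each mouse, with Benjamini-Hochberg adjustment over all genes and a threshold of 0.05. The code was tested on simulated data. Differences between types were tested within mice. The members, gene lists and tests were chosen with earlier results of these data known. Members past the threshold were named (in CD4 all of them, although the rule asked for the 10 of largest change), with the 2 of highest level in each role, tissue isoforms, subunit c genes, X-linked members and called pathway genes. Receptor tables were not used, and values of 1 member are not reported here. Positions and promoters are from RefSeq (GRCm38.p6), which gave positions for 87 of 88 members. Shares of cells with a gene cover counting only. P-values set the difference between groups against the spread of mice within them, with variances drawn towards a trend over all genes. They cover these 4 mice only. The Ly6c2 subsets of Mac were chosen after seeing the data. Antisense and overlapping genes could not be separated, since no source used here gives the counting settings.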

Additional observations from a re-analysis of the deposited data

Results flagged for a closer look

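For 19 comparisons of a member between annotated types, the change between SLE.yaa and WT in one type differed from that in another (limma on differences within mice, Benjamini-Hochberg adjusted p under 0.05 over all genes, n = 2 mice per group). Groups of 2 mice are too small for a check on single outlying mice.

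For 12 members the log2 change in B was lower than in CD4. The differences were -0.332 for Cox5b, -0.341 for Atp5g3, -0.342 for Cox6b1, -0.443 for Ndufa13, -0.391 for Uqcr11 and -0.423 for Uqcr10. They were -0.316 for Uqcrb, -0.388 for Cox6c, -0.399 for Atp5j, -0.410 for Cox8a, -0.533 for Ndufb8 and -0.352 for Ndufa1. Adjusted p lay between 0.00388 (Ndufb8) and 0.0429 (Cox5b). In B these 12 changed by -0.00 to 0.17 and none passed. On the scale without ribosomal and immunoglobulin genes 11 of the 12 lost the call, and with 1 mouse left out 2 to 3 of them kept it. Of the 12, only Ndufb8 kept it under all 6 alternatives.

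For 6 members the change was higher in B than in CD4. The differences were 0.700 for Cox7a2l, 0.587 for Ndufa10, 0.400 for Uqcrfs1, 0.388 for Ndufaf4, 0.380 for Atp5mpl and 0.364 for Ndufaf5, a complex I assembly factor, with adjusted p from 0.000957 (Cox7a2l) to 0.0423 (Ndufaf5). In CD4 these 6 changed by -0.57 to -0.22. With values scaled to the sum alone, 4 of the 6 lost the call, and Cox7a2l and Ndufa10 kept it under all 6 alternatives. Between CD4 and CD8, the change of Ndufb8 differed by 0.596 (adjusted p = 0.0409).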

How the results depend on the processing

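Counts of members called and summed levels moved with the scaling and with single mice, and the cause was not tested. With no scaling between mice, neither to the sum nor with TMM factors, 40 members rose in B, 5 in B-ISG, 53 in CD4 (1 fell), 5 in CD8 and 6 in PC. Of all genes, 13%, 2.67%, 24.5%, 4.1% and 8.46% rose there, and 5.78% fell in CD4. The log2 change of the sum was then 0.40 in B (0.11 as reported), 0.47 in B-ISG (0.14), 0.45 in CD4 (0.22), 0.11 in PMN (0.00) and 0.59 in PC (0.47). Mean depth-adjusted sums per cell in B were 3533 and 3591 in the WT mice and 4564 and 4461 in the SLE.yaa mice. With means of log values, 36 rose in B, 5 in B-ISG and 45 in CD4 (1 fell). Of all genes, 10.5%, 2.23% and 21.9% rose there, and 5.95% fell in CD4. On the scale without ribosomal and immunoglobulin genes, 7 rose and 5 fell in CD4, 1 rose in DC (5 as reported), 2 rose and 1 fell in PC, 1 member changed less in B than in CD4 (12 as reported) and 0 differed between CD4 and CD8. Of all genes on that scale, 12.5% rose and 18.0% fell in CD4, 5.67% rose in DC, and 10.4% rose and 0.747% fell in PC. For 9.12% the change was lower in B than in CD4. It was higher in CD4 than in CD8 for 2.79% and lower for 1.31%. The sums there changed by 0.10 in Mac (0.26 as reported), 0.040 in DC (0.27), -0.31 in PMN and 0.10 in PC. Scaled to the sum alone, 2 rose in DC and 0 in PC, where 6.76% and 6.88% of all genes did. In B, 2 members changed more and 22 less than in CD4, against 9.95% and 17.8% of all genes. The sums changed by 0.067 in Mac, 0.10 in DC, -0.23 in PMN and 0.21 in PC.

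In cells of 2500 to 5000 UMIs, 5 members fell in CD4 and 1 rose in CD8, where 11.4% and 3.42% of all genes did. Robust variances gave 1 higher in Mac, where 4.98% of all genes were. In DC, 0 rose without the filter on low values, 8 with a mean of at least 50 vpm and 0 in cells without C1q. Of all genes, 1.94%, 15.1% and 0.224% rose in these 3 fits.

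With each mouse left out in turn, 0 to 6 members rose in B, and 0 (without WT 2) to 28 (without SLE.yaa 1) rose and 1 to 4 fell in CD4. In CD8 0 to 34 rose (34 without SLE.yaa 1), in Mac 0 to 20 (20 without WT 1), in DC 0 (without SLE.yaa 2) to 23 (without WT 1), with 0 to 1 lower, and in PC 0 (without either SLE.yaa mouse) to 45 (without WT 2), with 0 to 4 lower. For B against CD4, 2 to 3 members were higher and 2 to 4 lower, for CD4 against CD8 0 to 1, and for B against Mac 0 to 2 were lower. Of all genes, 1.44% to 6.90% rose in B in these fits, 9.58% to 12.8% in CD4, 0.549% to 11.1% in CD8, 0.789% to 13.6% in Mac, 4.1% to 17.0% in DC and 0.0537% to 44.8% in PC. The sum in PC changed by 0.36 to 0.51. A lone mouse was taken to vary like the other group. Depth-matched cells were not run for DC and PMN, where WT 2 had 18 and 11 of them. No paired analysis was possible because the numbers 1 and 2 only name the mice within a group. Few cells per type (PC of WT 12 and 11) limit the precision of the means.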

Other observations

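In pDC and Baso, which held too few cells for a test, single members stood at other levels than elsewhere. Cox6a2, known as the heart and muscle form of subunit 6a of complex IV, had 2250 and 1970.5 vpm in pDC of the WT mice and 1747 and 1795 vpm in the SLE.yaa mice, in 13, 8, 2 and 13 cells. It was listed at 0 in Baso of all 4 mice. Among the 10 types described above, its values included 52.5, 0, 19.6 and 27.0 vpm in PC and 20.3, 0, 8.51 and 5.88 vpm in NK. Ndufa1 had 286, 176, 368 and 259 vpm in pDC and 151, 140, 44.6 and 141 vpm in Baso.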
